A study of Mus musculus with 8 samples.

Results

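The genes described here make cholesterol and fatty acids and are driven by the sterol regulatory element binding proteins (SREBPs). They were chosen by name as 31 known members of that program, 18 in a sterol branch and 13 in a fatty acid branch, and each was read from its transcript cluster with the highest mean signal. Of the 31, 28 had a cluster on the array, all 18 sterol genes and 10 fatty acid genes, out of 19505 genes with a symbol. Srebf1, Scd2 and Acsl3 were not analysed here. All 28 were among the 10871 genes taken as measured, whose highest signal on the 8 arrays reached the median of the whole table, 4.86 on the log2 scale.

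The study cultured C57BL6/J mouse bone marrow cells in α-MEM with serum and profiled them on Affymetrix arrays 3 and 6 days after cytokine was added. One culture received M-CSF alone, the macrophage growth factor that all 4 cultures shared, at 50 ng/ml. The other three received M-CSF with 100 ng/ml RANKL, the cytokine that turns macrophage precursors into bone-resorbing osteoclasts, and a day later 2 of these were infected with a retroviral vector for PSS1, phosphatidylserine synthase 1, as the wild-type enzyme (PSS1-WT) or a mutant named PSS1-LMS. The labels do not name the mutation, the promoter of the vector or the share of cells infected, and they do not say whether the cultures without PSS1 received an empty vector. Each culture was read on 1 array per day, so the p-values below measure only how far a difference held between these single arrays, and nothing in the labels shows separate animals.

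SREBP2 chiefly drives the genes of cholesterol synthesis and uptake, and SREBP1 chiefly those of fatty acid synthesis and desaturation. When sterol in the endoplasmic reticulum is plentiful, INSIG proteins hold the SREBP escort SCAP there. When it is scarce, SCAP carries SREBP to the Golgi, where proteases release the part that enters the nucleus and binds promoters, usually beside NF-Y and SP1. In macrophages this synthesis is balanced against the uptake and efflux of cholesterol.

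Promoters are shown first, since the members are defined by a shared regulator. RefSeq (mouse GRCm38.p6) gave the 250 bases upstream of the gene start for 22 of the 28, 14 sterol and 8 fatty acid genes, and 4 motifs were searched on both strands: the SREBP element of the LDL receptor type, TCACNCCAC, the NF-Y box CCAAT, the SP1-type GC box GGGCGG, and the E-box CACGTG. Sqle, Fdft1, Fdps, Stard4, Scd1 and Fads1, which all fell with RANKL, had no window and were not searched. Of the 22 windows, 5 are printed 5′ to 3′ with matches in capitals. They are 4 sterol genes that fell with RANKL, for an early, a middle and a late step and for SCAP retention, and Fads2. Fads2 was the member with the largest difference. No marked matches share bases.
Hmgcs1: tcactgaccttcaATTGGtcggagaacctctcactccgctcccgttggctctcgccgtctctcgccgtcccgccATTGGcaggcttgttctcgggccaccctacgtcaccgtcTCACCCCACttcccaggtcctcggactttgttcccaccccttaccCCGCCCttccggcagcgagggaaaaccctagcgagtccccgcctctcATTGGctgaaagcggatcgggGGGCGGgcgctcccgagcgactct
Idi1: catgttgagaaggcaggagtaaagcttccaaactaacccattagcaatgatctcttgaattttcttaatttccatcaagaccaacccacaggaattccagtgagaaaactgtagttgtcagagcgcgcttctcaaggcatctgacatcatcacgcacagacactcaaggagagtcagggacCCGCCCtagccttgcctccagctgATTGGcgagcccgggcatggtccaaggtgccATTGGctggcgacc
Cyp51: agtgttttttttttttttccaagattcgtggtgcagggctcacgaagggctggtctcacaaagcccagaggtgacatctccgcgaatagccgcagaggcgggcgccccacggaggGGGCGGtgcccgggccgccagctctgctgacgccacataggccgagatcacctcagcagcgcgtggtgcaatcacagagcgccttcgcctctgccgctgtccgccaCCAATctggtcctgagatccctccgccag
Insig1: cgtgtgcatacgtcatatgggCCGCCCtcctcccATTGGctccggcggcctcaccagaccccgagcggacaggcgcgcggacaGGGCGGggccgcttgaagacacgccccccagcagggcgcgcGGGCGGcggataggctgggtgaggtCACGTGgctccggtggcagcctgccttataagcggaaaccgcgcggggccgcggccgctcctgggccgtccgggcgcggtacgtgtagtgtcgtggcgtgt
Fads2: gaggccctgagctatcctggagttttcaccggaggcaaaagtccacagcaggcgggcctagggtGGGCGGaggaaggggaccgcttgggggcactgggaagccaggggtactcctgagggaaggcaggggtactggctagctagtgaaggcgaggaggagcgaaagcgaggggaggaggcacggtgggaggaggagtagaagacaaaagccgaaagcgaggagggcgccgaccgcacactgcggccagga
They lie at chr13:119690101-119690350 on the plus strand (Hmgcs1), chr13:8885356-8885605 on the plus strand (Idi1), chr5:4104698-4104947 on the minus strand (Cyp51), chr5:28071162-28071411 on the plus strand (Insig1) and chr19:10101504-10101753 on the minus strand (Fads2).

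The NF-Y box was in all 14 sterol windows and in 4 of 8 fatty acid windows (Fasn, Elovl5, Me1 and Gpam), against 37.5% of all 27025 genes with a window. The GC box was in 13 of 14 sterol and 4 of 8 fatty acid windows, against 35.4% of all genes, and Pmvk was the sterol gene without it. In the sequences above, Hmgcs1 carries 3 NF-Y boxes, 1 GC box in each orientation and the only SREBP element among the 22, with its first base 137 bases before the gene start. That element was in 1.22% of all genes. The E-box, which SREBPs can also bind, was in Insig1, Dhcr7, Sc5d, Hsd17b7 and Elovl5, 5 of 22 against 6.86% of all genes. Fads2 held a GC box and no other match. A match describes letters only, and the 27025 genes were not limited to those measured on the arrays, as the members were.

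As checks of the cultures, Ptdss1, the gene of PSS1, read 9.56 to 10.36 on the 4 arrays without the vector, 18.91 and 18.06 with PSS1-WT and 18.79 and 17.50 with PSS1-LMS. All 10 osteoclast markers rose with RANKL and 8 of 9 macrophage markers fell. The summed linear signal of the macrophage list was 340150 to 1046500 on the M-CSF arrays and 87083 to 111490 on the 6 arrays with RANKL. That of the neutrophil list was 3546 to 29690 against 312 to 26980, and that of the dendritic cell list 191 to 341 against 326 to 764. The adipocyte list summed to 126 to 261 against 66.3 to 118, with Adipoq, Plin1, Cidec and Lep within background on every array, as were all B cell and all stromal markers. The other adipocyte marker with a cluster was above background with M-CSF alone but on no array with RANKL, and it fell with RANKL. Background means a signal at or under the brightest of 23 background probe sets on the same array, which lay between 5.54 and 7.13. Mvk and Scd1 were within background on all 8 arrays, Pmvk on 5 and Fads2 on 5 of the 6 with RANKL.

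With RANKL the program was lower. By limma, with Benjamini-Hochberg adjustment over all measured genes and a threshold of 0.05, 10 of 18 sterol genes fell and none rose, where 12.4% of all measured genes fell and 14.1% rose. In the fatty acid branch 5 of 10 fell and none rose. The median log2 difference, averaged over both days, was -1.48 in the sterol branch and -1.78 in the fatty acid branch, against 0.03 over all measured genes. All 18 sterol genes and 8 of 10 fatty acid genes were lower on both days (33.2% of all measured genes), though Mvk stood at 4.90 on both day 3 arrays. In 15 of 18 and 8 of 10 both M-CSF arrays lay above all 6 arrays with RANKL (20.8% of all measured genes), counting Mvk, a tie at 4.90 within background, and Scd1, also within background. In bulk RNA, fewer cells of a type and less RNA per cell cannot be told apart, and the part of the macrophage markers' fall in these results was not tested.

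**Figure D1:**
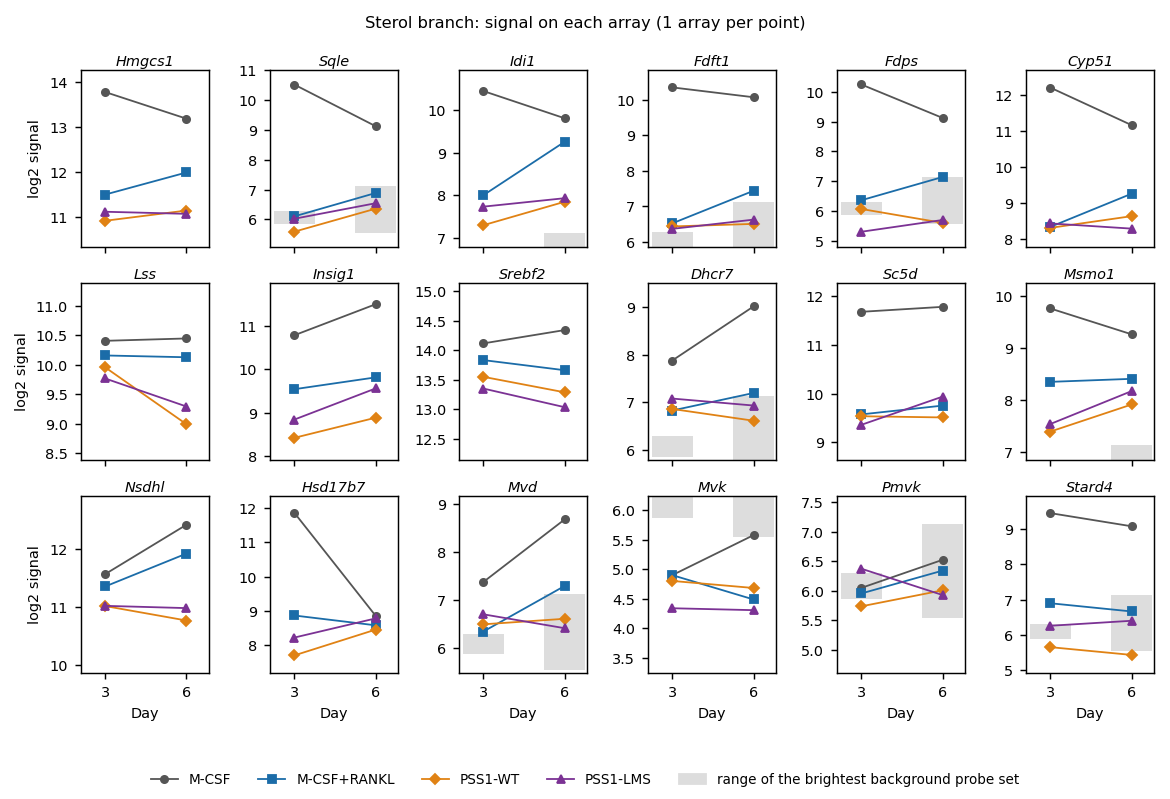
Log2 signal of the 18 sterol branch genes (y axis, scaled per gene) on days 3 and 6 (x axis), 1 array per point, for the 4 cultures; the grey band spans the brightest background probe set over the cultures of that day. M-CSF points (grey circles) stood above all 6 arrays with RANKL in 15 of the 18 panels (in Mvk's, within background, they met at 4.90). The gap between M-CSF and M-CSF+RANKL narrowed on day 6 in several panels, among them Sqle, Idi1, Fdps and Cyp51, and most for Hsd17b7.

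The mevalonate steps came first in the pathway. Hmgcs1, HMG-CoA synthase, which makes the substrate of HMG-CoA reductase, read 13.78 and 13.19 on days 3 and 6 with M-CSF, 11.50 and 11.99 with M-CSF+RANKL, 10.92 and 11.14 with PSS1-WT, and 11.12 and 11.07 with PSS1-LMS. Every array with RANKL was below both M-CSF arrays, and the M-CSF+RANKL pair was above all 4 PSS1 arrays. It fell by 1.74 ± 0.34 (SE) on the log2 scale, 3.34-fold, with adjusted p = 0.0077 by limma. Idi1, the isomerase that turns one isoprene unit into its reactive partner, read 10.44 and 9.80 with M-CSF, 8.004 and 9.25 with M-CSF+RANKL, 7.30 and 7.85 with PSS1-WT, and 7.74 and 7.94 with PSS1-LMS. Its groups did not overlap, but on day 6 the M-CSF+RANKL array came within 0.55 of the M-CSF array. It fell by 1.49 ± 0.44 (2.82-fold, adjusted p = 0.0407), the largest adjusted p among the sterol genes that passed.

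Fdps, farnesyl diphosphate synthase, the step that nitrogen-containing bisphosphonates block in osteoclasts, read 10.25 and 9.13 with M-CSF, 6.36 and 7.14 with M-CSF+RANKL, 6.07 and 5.60 with PSS1-WT, and 5.30 and 5.69 with PSS1-LMS. The groups were apart on both days, and the 2 PSS1-LMS arrays were within background. It fell by 2.94 ± 0.47 (7.67-fold, adjusted p = 0.0029). The remaining mevalonate genes did not pass. Mvd, which makes isopentenyl diphosphate, was lower by 1.03 on day 3 and 1.39 on day 6 (-1.21 ± 0.42, adjusted p = 0.0735). The kinases Mvk (-0.55) and Pmvk (-0.14) lay in or near background, so their differences say little.

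Squalene synthesis held the largest sterol differences. Fdft1, squalene synthase, which commits farnesyl diphosphate to sterols, read 10.35 and 10.07 with M-CSF, 6.52 and 7.44 with M-CSF+RANKL, 6.44 and 6.51 with PSS1-WT, and 6.37 and 6.63 with PSS1-LMS. All 6 arrays with RANKL lay far below both M-CSF arrays, which differed little from each other. It fell by 3.23 ± 0.35, 9.36-fold, with adjusted p = 0.00046. Sqle, squalene epoxidase, a rate-limiting enzyme, read 10.52 and 9.13 with M-CSF, 6.10 and 6.89 with M-CSF+RANKL, 5.59 and 6.36 with PSS1-WT, and 6.02 and 6.54 with PSS1-LMS. The M-CSF signal was lower on day 6 while all 3 cultures with RANKL were higher, and the groups still did not overlap. It fell by 3.33 ± 0.54 (10.1-fold, adjusted p = 0.0032). Lss, which closes the sterol rings, was at 10.40 and 10.44 with M-CSF and 10.15 and 10.12 with M-CSF+RANKL, a difference of -0.28 ± 0.34 that did not pass.

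After ring closure, Cyp51, the lanosterol demethylase, read 12.21 and 11.17 with M-CSF, 8.34 and 9.26 with M-CSF+RANKL, 8.31 and 8.64 with PSS1-WT, and 8.44 and 8.29 with PSS1-LMS. The groups did not overlap, and the gap narrowed from -3.87 on day 3 to -1.90 on day 6. It fell by 2.89 ± 0.46 (7.39-fold, adjusted p = 0.0029). Sc5d, the desaturase of the sterol ring, read 11.68 and 11.79 with M-CSF, 9.57 and 9.75 with M-CSF+RANKL, 9.53 and 9.51 with PSS1-WT, and 9.36 and 9.94 with PSS1-LMS. Its difference was nearly the same on both days (-2.11 and -2.03), and it fell by 2.07 ± 0.30 (4.21-fold, adjusted p = 0.0018). Dhcr7, which makes cholesterol from 7-dehydrocholesterol, read 7.88 and 9.01 with M-CSF, 6.83 and 7.20 with M-CSF+RANKL, 6.86 and 6.62 with PSS1-WT, and 7.08 and 6.93 with PSS1-LMS. The groups were apart, most clearly on day 6, and Dhcr7 fell by 1.43 ± 0.39 (2.70-fold, adjusted p = 0.0305).

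The 3 enzymes that together remove further methyl groups of the ring, after Cyp51, did not pass. Msmo1 was lower by 1.42 and 0.86 on the 2 days (-1.14 ± 0.36, adjusted p = 0.0506) and its groups did not overlap. Nsdhl differed by -0.35 ± 0.35. Hsd17b7 read 11.87 on the M-CSF array of day 3 and 8.86 on that of day 6, against 7.70 to 8.86 on the arrays with RANKL. Its difference was thus -3.01 on day 3 and -0.28 on day 6 (average -1.64 ± 0.81, adjusted p = 0.186), and only the day 3 M-CSF array stood apart.

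Of the remaining sterol genes, Insig1, which retains SCAP and is itself an SREBP target, read 10.78 and 11.50 with M-CSF, 9.54 and 9.81 with M-CSF+RANKL, 8.42 and 8.88 with PSS1-WT, and 8.84 and 9.56 with PSS1-LMS. Both M-CSF arrays were above all others, and within each RANKL culture day 6 was higher. Insig1 fell by 1.46 ± 0.29 (2.76-fold, adjusted p = 0.0080). Stard4, a sterol carrier between membranes, read 9.45 and 9.08 with M-CSF, 6.89 and 6.66 with M-CSF+RANKL, 5.65 and 5.43 with PSS1-WT, and 6.25 and 6.40 with PSS1-LMS. The 4 cultures kept the same order on both days, with PSS1-WT lowest and within background. It fell by 2.49 ± 0.29 (5.61-fold, adjusted p = 0.00064). Srebf2, the gene of SREBP2, read 14.12 and 14.34 with M-CSF and 13.84 and 13.66 with M-CSF+RANKL, a difference of -0.48 ± 0.29 that did not pass (adjusted p = 0.281).

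**Figure D2:**
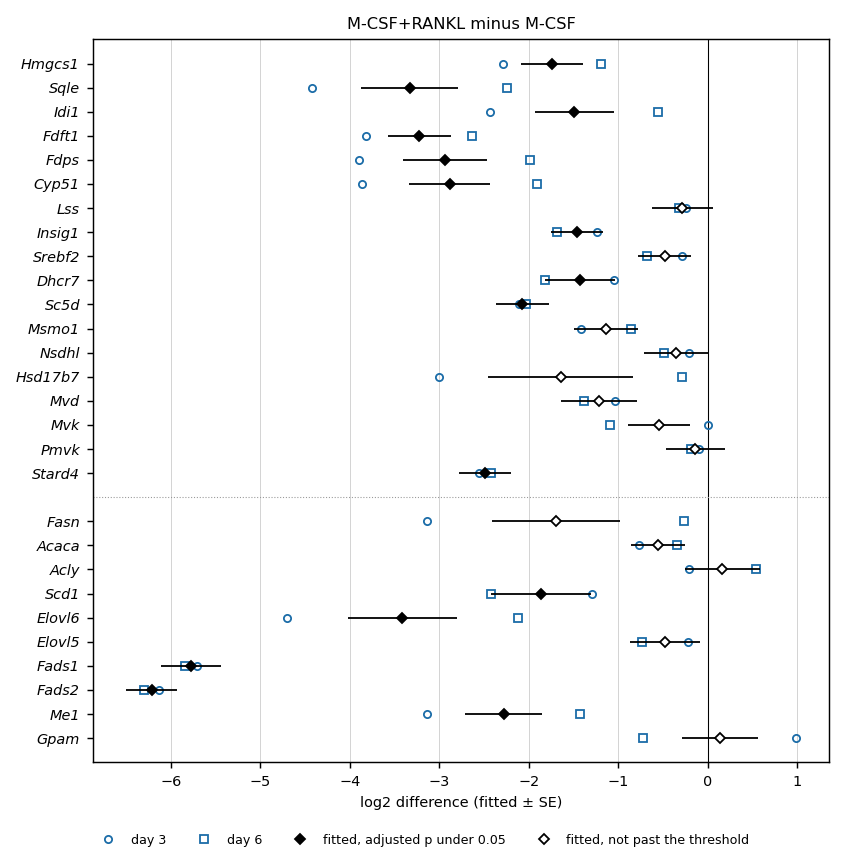
Log2 difference of M-CSF+RANKL minus M-CSF (x axis) for the 28 genes, sterol branch above the dotted line and fatty acid branch below it, with the day 3 and day 6 differences as open circles and squares and the limma estimate ± SE as diamonds, filled where adjusted p was under 0.05. Filled diamonds lie between -1.43 for Dhcr7 and -6.21 for Fads2, and no filled diamond is to the right of 0.

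In the fatty acid branch the polyunsaturated desaturases differed most. Fads2, the delta-6 desaturase that opens the route from linoleic acid to arachidonic acid, read 11.58 on both days with M-CSF, 5.45 and 5.29 with M-CSF+RANKL, 5.31 and 5.56 with PSS1-WT, and 5.40 and 5.27 with PSS1-LMS. The arrays with RANKL spanned 5.27 to 5.56, and 5 of the 6 were within background. Fads2 fell by 6.21 ± 0.29, at least 53.7-fold, with adjusted p = 1.123e-05. Here "at least" means that the lower side was raised to the brightest background probe set of its array. Fads1, the delta-5 desaturase of the same route, read 11.23 and 12.36 with M-CSF, 5.53 and 6.51 with M-CSF+RANKL, 5.97 and 6.27 with PSS1-WT, and 6.03 and 7.30 with PSS1-LMS. Every culture was higher on day 6, and the gap between the groups was wider than any change between days. It fell by 5.78 ± 0.33 (at least 46.4-fold, adjusted p = 2.638e-05), with the day 3 M-CSF+RANKL array within background.

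Fads1 and Fads2 are neighbours on chromosome 19 with no protein-coding gene between them in RefSeq. The flanking genes, named here after their values were seen, did not share 1 pattern. Beyond Fads2, Fads3 fell within background (-1.48 ± 0.35) and Rab3il1, next to it, fell by 5.11 ± 0.67 (adjusted p = 0.0011). Beyond Fads1, Fen1 (-0.64 ± 0.50) and Tmem258 (0.70 ± 0.35) did not pass.

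Elovl6, which lengthens palmitate to stearate, read 10.65 and 8.05 with M-CSF, 5.95 and 5.93 with M-CSF+RANKL, 6.00 and 5.49 with PSS1-WT, and 6.91 and 6.94 with PSS1-LMS. PSS1-LMS was the highest of the cultures with RANKL on both days and still below both M-CSF arrays. Elovl6 fell by 3.41 ± 0.61 (at least 10.4-fold, adjusted p = 0.0050). Me1, malic enzyme, a source of NADPH for the pathway, read 9.54 and 8.50 with M-CSF, 6.40 and 7.08 with M-CSF+RANKL, 6.37 and 6.66 with PSS1-WT, and 6.52 and 6.84 with PSS1-LMS. The groups moved toward each other on day 6 without meeting, and Me1 fell by 2.28 ± 0.43 (4.86-fold, adjusted p = 0.0064). Scd1, the delta-9 desaturase, passed at -1.86 ± 0.56 (adjusted p = 0.0440), but it read 5.38 and 6.62 with M-CSF and 2.81 to 4.20 with RANKL, all within background, so no fold is given.

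Fasn, fatty acid synthase, resembled Hsd17b7. It read 10.28 and 7.75 with M-CSF, 7.15 and 7.49 with M-CSF+RANKL, 6.34 and 7.24 with PSS1-WT, and 7.47 and 7.22 with PSS1-LMS. The difference of -3.13 on day 3 was -0.26 on day 6, and the average did not pass (-1.70 ± 0.72, adjusted p = 0.128). Acaca, acetyl-CoA carboxylase, which makes malonyl-CoA, was lower on both days (-0.56 ± 0.30), as was Elovl5, the elongase of polyunsaturated fatty acids (-0.48 ± 0.39), and neither passed. Acly, which makes cytosolic acetyl-CoA, was at 13.68 and 12.10 with M-CSF and 13.47 and 12.63 with M-CSF+RANKL (0.16 ± 0.42). Gpam, the first acyltransferase of glycerolipid synthesis, differed by 0.98 on day 3 and -0.72 on day 6. Acly and Gpam were thus the 2 members that were not lower on both days.

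**Figure D3:**
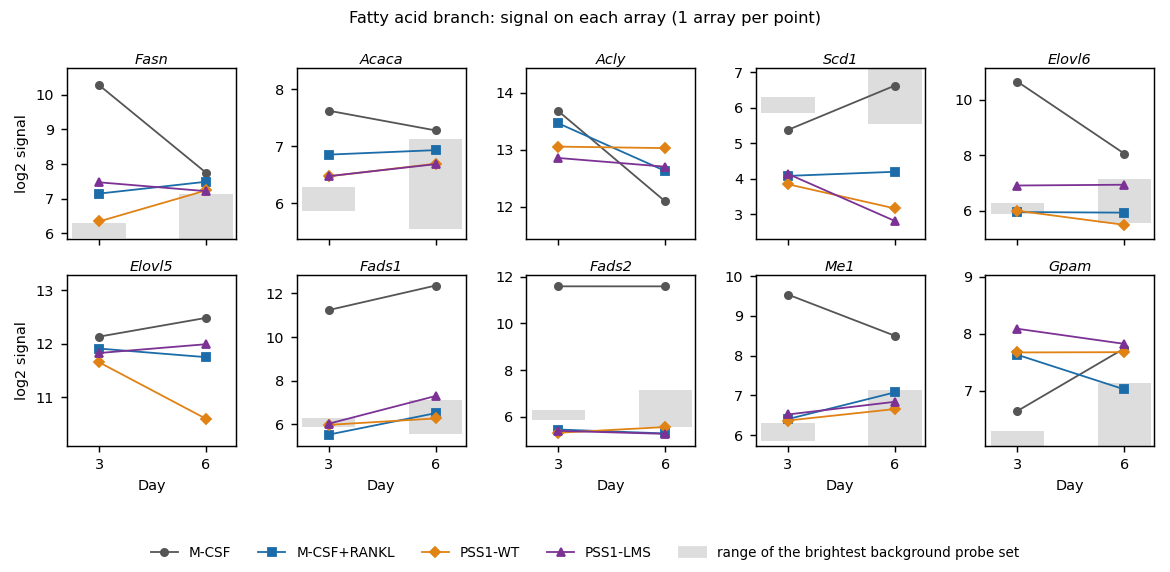
Log2 signal of the 10 fatty acid branch genes (y axis, scaled per gene) on days 3 and 6 (x axis), 1 array per point, for the 4 cultures; the grey band spans the brightest background probe set over the cultures of that day. Fads1 and Fads2 show the widest gap between M-CSF (11.23 or higher) and RANKL (7.30 or lower), while Acly and Gpam lines cross.

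The calls leaned on both M-CSF+RANKL arrays. Without that of day 3, 4 sterol genes (Fdft1, Cyp51, Sc5d and Stard4) and 2 fatty acid genes (Fads1 and Fads2) passed, and Hmgcs1, Sqle, Idi1, Fdps, Insig1, Dhcr7, Scd1, Elovl6 and Me1 did not, all still lower. Without that of day 6, Idi1, Insig1, Dhcr7 and Scd1 did not pass. Dhcr7 was also lost without either PSS1-LMS array, and Elovl6 and Idi1 with signals raised to the brightest background. Fdft1, Cyp51, Sc5d, Stard4, Fads1 and Fads2 passed in each of the 14 alternative fits. Idi1 passed in 6 of 14, with adjusted p from 0.000163 to 0.351, and of the 8 fits that leave out 1 array it passed only in that without the day 6 M-CSF array. Scd1 passed in 6 of 12, from 2.708e-05 to 0.261, and was also lost without the day 6 M-CSF array, without either PSS1-WT array and with no filter on low signals.

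Genes beside the members in the same pathways gave a mixed picture. Of 10 other genes of cholesterol synthesis and uptake, 4 had a cluster (Ebp, Lbr, Ggps1 and Tmem97). Lbr, a sterol reductase of the nuclear envelope, fell by 2.14 ± 0.56, 4.40-fold, as 1 of 4 against 12.4% of all measured genes, and the median of the 4 was -0.08. Of 7 measured genes of SREBP processing and turnover, Mbtps1, the Golgi protease that makes the first cut, rose by 1.07 ± 0.33 (adjusted p = 0.0475), and Rnf139, a ubiquitin ligase of the endoplasmic reticulum, fell by 1.05 ± 0.31 (adjusted p = 0.0396). That is 1 of 7 each way, near the 14.1% and 12.4% of all measured genes. Scap (0.10 ± 0.32) and Insig2 (0.94 ± 0.35) did not pass.

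Of 16 measured other genes of fatty acid and triglyceride synthesis, 4 rose and 1 fell, against the same 14.1% and 12.4%. Oxsm, of mitochondrial fatty acid synthesis, rose by 2.11 ± 0.48, and the elongases Elovl7 and Elovl1, which act on long chains, by 2.01 ± 0.30 (near background, so no fold is given) and 1.57 ± 0.31. The dehydratases of the elongation cycle went opposite ways, in that Hacd3 rose by 1.15 ± 0.29 and Hacd2 fell by 1.91 ± 0.36. The median of the 16 was -0.34.

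With PSS1-WT most sterol genes were lower than with M-CSF+RANKL alone, none past the threshold. Of all measured genes only Ptdss1 rose (0.0092%) and none fell (0.0%) by limma, against 4.88% lower and 1.99% higher at an unadjusted p under 0.05. At that unadjusted p, 9 of 18 sterol genes were lower (Hmgcs1, Idi1, Fdps, Lss, Insig1, Msmo1, Nsdhl, Hsd17b7 and Stard4) and 1 of 10 fatty acid genes, Elovl5. In the sterol branch 17 of 18 were lower on average (58.7% of all measured genes) and 15 on both days (32.2% of all measured genes), with a median of -0.58, -0.29 on day 3 and -0.65 on day 6, against -0.06 over all measured genes. The fatty acid branch had a median of -0.21 with 5 of 10 lower on both days. These values use the same M-CSF+RANKL arrays as the RANKL comparison.

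Stard4 went from 6.89 and 6.66 with M-CSF+RANKL to 5.65 and 5.43 with PSS1-WT (-1.24 ± 0.25, at least 2.03-fold, adjusted p = 0.340). Both PSS1-WT signals were within background, so the size beyond that bound was not measured. Idi1 differed by -0.70 and -1.40 on the 2 days (-1.05 ± 0.28, adjusted p = 0.460). Insig1 differed by -1.12 and -0.93 (-1.02 ± 0.25, adjusted p = 0.398). Together with Hmgcs1 and Sqle these made 5 of 18 sterol genes lower by at least 0.5 on both days, against 1.93% of all measured genes and 0 of 10 fatty acid genes. Of these, Stard4 on both days and Sqle on day 3 were within background with PSS1-WT.

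Other sterol genes differed mainly on day 6. Fdps was lower by 0.29 on day 3 and 1.54 on day 6, Lss by 0.20 and 1.14, Nsdhl by 0.34 and 1.15, and Fdft1 by 0.09 and 0.93. Msmo1 and Hsd17b7 went the other way, with -0.96 and -1.17 on day 3 and -0.49 and -0.13 on day 6. Elovl5 was lower by 0.26 and 1.15 (-0.70 ± 0.29), while Fads1 (0.10 ± 0.27) and Fads2 (0.07 ± 0.25) were near no difference with their signals in or near background. Idi1 passed when the day 3 M-CSF+RANKL array was left out, and Stard4 when either PSS1-LMS array was, with adjusted p from 0.0237 to 1 and from 0.0227 to 1 over the alternatives.

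PSS1-LMS, set against the same M-CSF+RANKL arrays, also had lower sterol genes, and again no member passed, while 0.156% of all measured genes rose and 0.0184% fell. At an unadjusted p under 0.05, 6 of 18 sterol genes were lower (Hmgcs1, Idi1, Fdps, Lss, Srebf2 and Nsdhl), against 3.15% of all measured genes. The sterol median was -0.46, -0.36 on day 3 and -0.52 on day 6, against -0.02 over all, with 17 of 18 lower on average (53.5% of all) and 12 on both days (27.6% of all). The fatty acid branch was split, with a median of -0.01 and 5 genes to each side. At the unadjusted p Elovl6, Fads1 and Gpam were higher (3.42% of all) and Scd1, within background, lower.

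Fdps went from 6.36 and 7.14 with M-CSF+RANKL to 5.30 and 5.69 with PSS1-LMS, both within background (-1.25 ± 0.29, at least 1.61-fold, adjusted p = 0.168). It passed with a stricter filter on low signals, without the day 3 M-CSF+RANKL array or without either PSS1-WT array, and its adjusted p ranged from 0.0077 to 1 over the alternatives. Elovl6 was higher by 0.96 and 1.01 on the 2 days (0.98 ± 0.25, at least 1.94-fold, adjusted p = 0.242). Gpam was higher by 0.46 and 0.80 (0.63 ± 0.26) and Fads1 by 0.50 and 0.79 (0.64 ± 0.27, at least 1.32-fold). The day 3 M-CSF+RANKL signal of Fads1 was within background, so its difference was not measured in full. Lss and Nsdhl were again lower chiefly on day 6, by 0.83 and 0.93, and Srebf2 by 0.48 and 0.63 on the 2 days.

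None of the 4, 7 and 16 measured genes of the other pathway lists passed with PSS1-WT or with PSS1-LMS by limma. At an unadjusted p under 0.05, Ggps1, which makes geranylgeranyl diphosphate from the product of Fdps, was lower in both (-0.97 ± 0.27 and -0.67 ± 0.27) and Tmem97 with PSS1-WT (-0.83 ± 0.34).

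Counting arrays without a test, both M-CSF+RANKL arrays stood above all 4 PSS1 arrays in 8 of 18 sterol genes: Hmgcs1, Idi1, Fdps, Lss, Srebf2, Msmo1, Nsdhl and Stard4. That held for 7.47% of all measured genes and, in the fatty acid branch, for Acaca alone. They stood below all 4 for Gpam alone (4.19% of all). Within the 6 arrays with RANKL, the day 6 M-CSF+RANKL array was the highest for 11 of 18 sterol and 4 of 10 fatty acid genes, against 15.8% of all measured genes. It was the lowest for none of the sterol genes and for Acly and Gpam. Its part in the PSS1 differences of day 6 was not tested. In the M-CSF+RANKL culture 13 of 18 sterol genes were higher on day 6 than on day 3 (46.2% of all), with Idi1 up by 1.25, Mvd by 0.95, and Fdft1 and Cyp51 by 0.92.

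**Figure D4:**
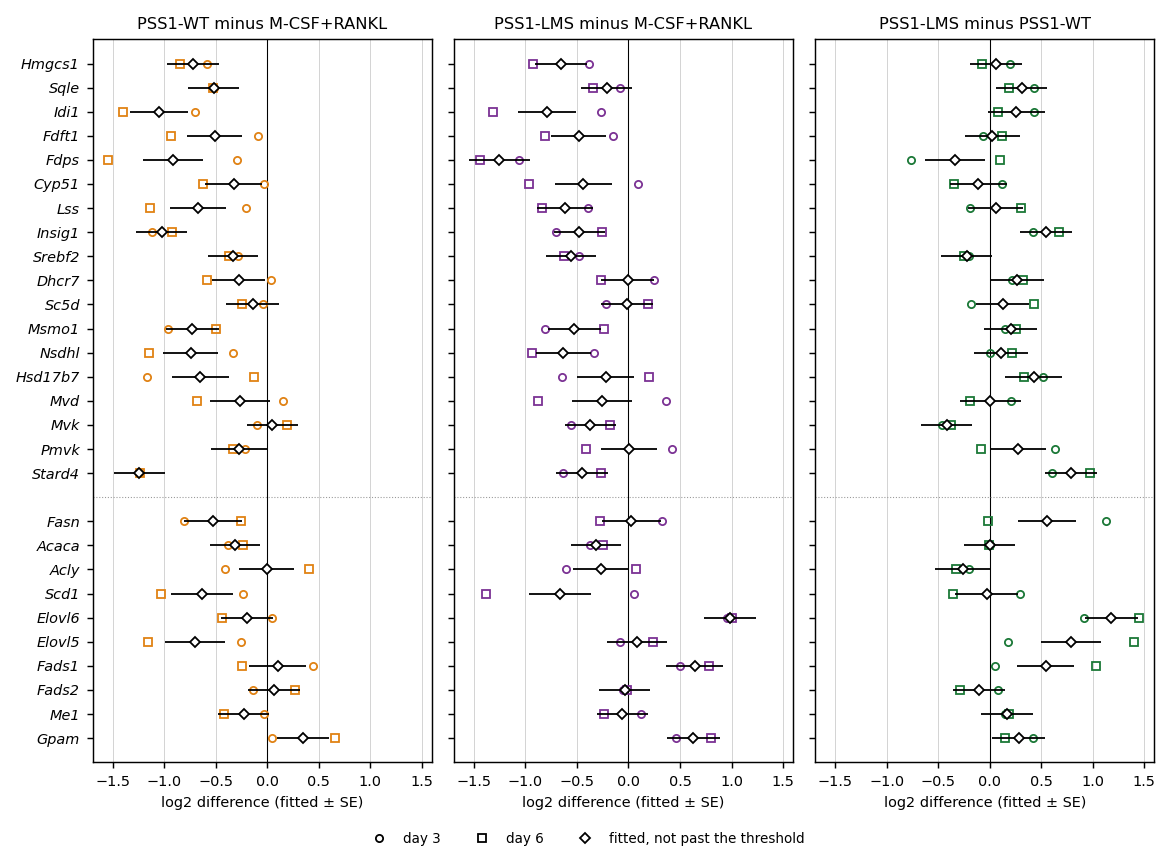
Log2 differences (x axis) for the 28 genes, sterol branch above the dotted line: wild-type PSS1 (left) and mutant PSS1 (middle), each less the RANKL culture without PSS1, and mutant less wild-type PSS1 (right), with day 3 and day 6 as open circles and squares and the limma estimate ± SE as diamonds. No estimate passed. In the left and middle panels 17 of 18 sterol diamonds lie below 0. In the right panel Elovl6 (1.18) and Stard4 (0.79, with its PSS1-WT signals within background) lie furthest above 0.

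Mutant against wild-type PSS1 gave no call in any measured gene by limma (0.0% in each direction), with 4.89% higher and 2.22% lower at an unadjusted p under 0.05. At that p 2 sterol genes, Insig1 and Stard4, and 2 fatty acid genes, Elovl6 and Elovl5, were higher with PSS1-LMS. Elovl6 read 6.91 and 6.94 with PSS1-LMS against 6.00 and 5.49 with PSS1-WT (1.18 ± 0.25, 95% interval 0.64 to 1.72, at least 2.22-fold, adjusted p = 0.252). Elovl5 was higher by 0.17 on day 3 and 1.40 on day 6, with 10.60 on the day 6 PSS1-WT array against 11.66 to 11.99 on the other 5 with RANKL. Stard4 was higher by 0.61 and 0.97 (0.79 ± 0.25, 95% interval 0.26 to 1.32, at least 1.48-fold), with both PSS1-WT signals within background. Insig1 was higher by 0.42 and 0.67 (0.55 ± 0.25, 95% interval 0.02 to 1.08). These p-values are unadjusted, and the adjusted p was 0.583 for Stard4 and 0.687 for Insig1.

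Hmgcs1 differed by 0.06 (95% interval -0.47 to 0.60), Idi1 by 0.26 (-0.33 to 0.85), and Fdps by -0.33 (-0.96 to 0.29). Both PSS1-LMS signals of Fdps were within background, so its difference was not measured in full. The branch medians were 0.12 and 0.22, against 0.04 over all measured genes, and 8 of 18 and 5 of 10 genes were higher on both days (33.1% of all). Both PSS1-LMS arrays lay above both PSS1-WT arrays for Dhcr7, Stard4, Elovl6, Elovl5 and Gpam, 5 of 28 against 17.4% of all, a share near that of other genes. Elovl6 passed without either M-CSF+RANKL array or without the day 3 PSS1-WT array, with adjusted p from 0.0275 to 1 over the alternatives.

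Between the days no member passed for the average of the 4 cultures, where 0.101% of all measured genes rose and 0.184% fell. Insig1 (0.54 ± 0.21) and Fads1 (0.92 ± 0.24, adjusted p = 0.353) were higher on day 6 at an unadjusted p under 0.05 by limma (3.57% of all). Both were higher in each of the 4 cultures. The M-CSF culture changed more than the others. Of its sterol genes Sqle, Fdps, Cyp51 and Hsd17b7 were at least 2-fold lower on day 6, 4 of 18, and of its fatty acid genes Fasn, Acly, Elovl6 and Me1, 4 of 10, against 12.9% of all measured genes. Dhcr7, Mvd, Scd1, Fads1 and Gpam were at least 2-fold higher, 5 of 28 against 14.9%.

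The day change was also compared between the M-CSF culture and the 3 cultures with RANKL, taken as replicates. With 1 M-CSF array per day the spread came from the cultures with RANKL alone, which differ in PSS1, and the M-CSF culture was assumed to vary like them. By limma it was higher with RANKL in 5 of 28 members and lower in 1, against 8.49% and 11.3% of all measured genes. Hsd17b7 differed most: -3.01 with M-CSF against -0.29 with M-CSF+RANKL, 0.75 with wild-type and 0.56 with mutant PSS1 (3.35 ± 0.53, adjusted p = 0.0012). Fasn changed by -2.53 with M-CSF and by 0.34, 0.90 and -0.26 with RANKL (2.86 ± 0.53, adjusted p = 0.0028). On day 6 both differed little between M-CSF+RANKL and M-CSF (-0.28 and -0.26, as above).

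Sqle went down by 1.40 with M-CSF and up by 0.52 to 0.78 with RANKL (2.09 ± 0.43, adjusted p = 0.0056). Elovl6 changed by -2.60 against -0.51 to 0.03 (2.43 ± 0.69, adjusted p = 0.0264), and Me1 by -1.04 against 0.29 to 0.67 (1.47 ± 0.38, adjusted p = 0.0185). Of the other pathway lists Lbr (2.15 ± 0.38) and Lpin1, a phosphatidate phosphatase (-3.31 ± 0.37), passed. Scd1, within background, was the member in the other direction (-1.88 ± 0.59, adjusted p = 0.0414), and its call held in 3 of 10 alternatives, with adjusted p from 0.00273 to 0.0796. Of the fits that leave out 1 array it passed only in that without the day 6 M-CSF+RANKL array. Elovl6 did not pass without the day 3 array of M-CSF+RANKL or of PSS1-WT (adjusted p from 1.983e-06 to 0.0563 over 12 alternatives). Over all members, the M-CSF day change was below that of each culture with RANKL in 9 of 18 sterol and 5 of 10 fatty acid genes (35.1% of all measured genes) and above each in 7 and 3 (38.7%). Without the day 6 M-CSF+RANKL array 4 sterol genes passed, and without the day 3 PSS1-WT array 2 fatty acid genes. Sterol genes that were higher on day 6 in all 3 cultures with RANKL were Sqle, Idi1, Fdft1, Insig1 and Msmo1, and fatty acid genes Acaca, Fads1 and Me1, 8 of 28 against 15.9% of all.

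**Figure D5:**
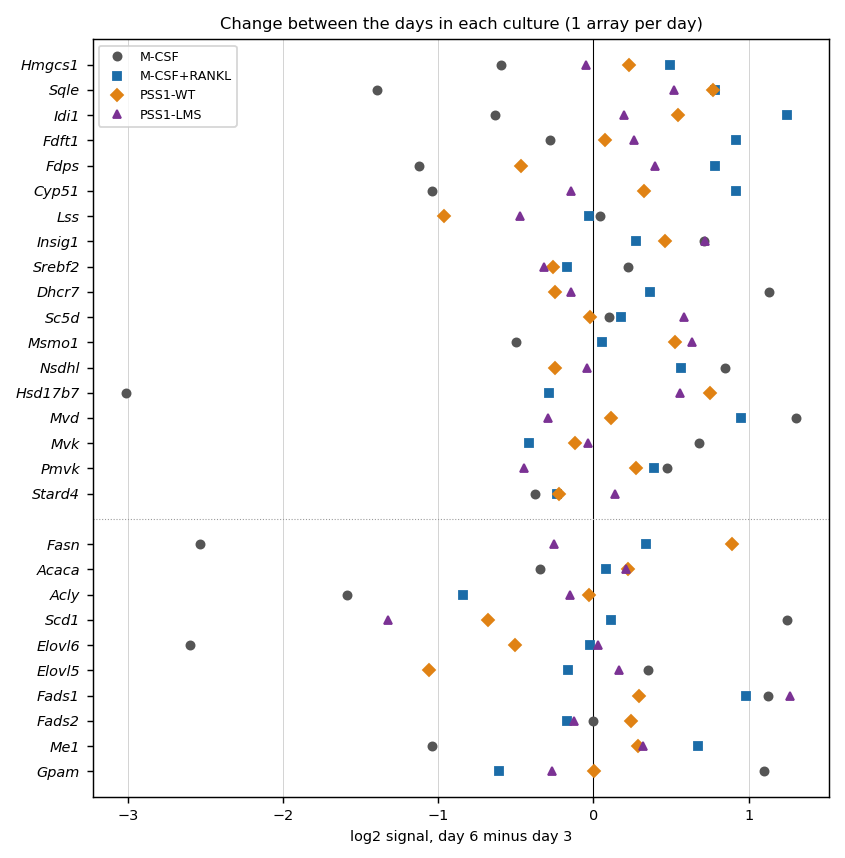
Change in log2 signal from day 3 to day 6 (x axis) in each of the 4 cultures for the 28 genes, sterol branch above the dotted line, 1 array per day. M-CSF points (grey circles) spread from -3.01 for Hsd17b7 to 1.30 for Mvd, while the cultures with RANKL stay between -1.33 and 1.27.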

How the data were processed

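Biotinylated cDNA from 500 ng total RNA was hybridised to Affymetrix arrays, per the labels' protocols, with 8 arrays in all. The deposited values were log2 signals per transcript cluster, from 1.25 to 19.93, with array medians of 4.80 to 4.93. The authors' summary and normalisation steps are not given in the sources used here. Clusters with 1 symbol in the platform annotation (19572) were reduced to the highest mean cluster of each gene.

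Differences were fitted with limma 3.58.1 in R 4.3.3 on all 10871 measured genes, with culture and day as terms. A run on simulated data, with independent noise and no background limit, was required only to recover added differences on average. The RANKL and day comparisons used all 8 arrays (3 residual degrees of freedom), the PSS1 comparisons the 6 with RANKL (2), and the comparison of day changes RANKL, day and their interaction (4). Errors are limma's SE, and adjusted p-values are Benjamini-Hochberg over all measured genes. The number of arrays limits the precision. Alternatives changed the filter, the scaling, the low values, the variance model or the arrays used. The members, gene lists and alternatives were chosen with earlier results of these data known. Every member is named, and genes of the other lists only where they passed or are said not to have.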

Additional observations from a re-analysis of the deposited data

Results flagged for a closer look

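For 6 members the change from day 3 to day 6 differed between the M-CSF culture and the 3 cultures with RANKL by limma's interaction term, 5 higher and 1 lower with RANKL, against 8.49% and 11.3% of all measured genes. The difference, RANKL less M-CSF on the log2 scale, was 3.35 for Hsd17b7, 2.86 for Fasn, 2.43 for Elovl6, 2.09 for Sqle, 1.47 for Me1 and -1.88 for Scd1, whose signals were within background. It rests on 1 M-CSF array per day, and the spread came from the cultures with RANKL alone.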

How the results depend on the processing

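No paired analysis was possible because the labels give no replicate numbers, each group has 1 array, and day is already a term of the fits. No difference changed sign under the alternatives run, centring and quantile normalisation included. That covers the 15 members that fell with RANKL, those with a different day change, and those at an unadjusted p under 0.05 in a PSS1 comparison. Some PSS1 differences were lost, though, with signals raised to the brightest background. Stard4 with PSS1-WT, Elovl6 with PSS1-LMS, and both genes for PSS1-LMS against PSS1-WT came to 0. Fdps came to -0.0052 with PSS1-WT and with PSS1-LMS, and Fads1 to 0.0842 with PSS1-LMS. With signals raised to the brightest background, 3 fatty acid genes fell with RANKL, 6 sterol genes passed for the day change with RANKL, no gene passed with PSS1-WT or PSS1-LMS (0 each by limma) and 6 did between days. With a stricter filter 1 sterol gene, Fdps, passed with PSS1-LMS and 4 for the day change with RANKL, and over all genes 2 passed with PSS1-WT, 40 with PSS1-LMS, 8 for PSS1-LMS against PSS1-WT and 10 between days. With an intensity trend these counts were 2, 43 and 7 for the 3 PSS1 comparisons. For PSS1-LMS 19 genes passed, 2 with no filter, 1 after quantile normalisation and 1 with all 8 arrays. With signals raised to the brightest background even Ptdss1 did not pass, though it read 17.50 or higher with the vector. Those counts of 0 thus say little about the members.

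Leaving out 1 array at a time gave 1197 to 4545 genes with RANKL, 4 to 12 sterol and 2 to 6 fatty acid genes. For PSS1-WT the counts were 3 to 61, 0 to 1 and 0 to 0, for PSS1-LMS 11 to 83, 0 to 1 and 0 to 0, and for PSS1-LMS against PSS1-WT 0 to 48, 0 to 0 and 0 to 1. Between days they were 10 to 367, 0 to 0 and 0 to 0, and for the day change with RANKL 1695 to 2361, 2 to 4 and 2 to 4. The last could not be estimated without either M-CSF array. Where leaving out an array left a culture with 1, that array was assumed to vary like the rest. The cause of these changes was not tested. Signals near background limit Mvk, Pmvk, Scd1 and the low side of Fads1, Fads2, Elovl6, Stard4, Fdps and Sqle.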
